A study of Homo sapiens with 15 samples.

Results

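RNA of the AMPK complex and of the kinases above it was followed in PEO1, a human ovarian carcinoma line, after a sort on CD90 and CD133 at the cell surface. The sorted fractions were CD90+/CD133+, then CD90+/CD133-, and last CD90-/CD133-, all from untreated cells, and whole-genome arrays had been run with 5 arrays per fraction (15 in all). The methods name the CD90+/CD133- and CD90-/CD133- samples as biological replicates, and the study used the sort to describe its cancer stem-like cells. The members were chosen by name, with earlier results of these data known. They are 10 genes of the 19775 that a probe set reads alone. Of the 10, 6 are AMPK subunit genes (PRKAA1, PRKAA2, PRKAB1, PRKAB2, PRKAG1 and PRKAG2) and 4 are upstream genes (CAMKK1, CAMKK2, STK11 and CAB39). In RefSeq (GRCh38.p14), the 3 members that changed most lie at chr7:151556127-151877115 (PRKAG2), chr12:121237692-121297819 (CAMKK2) and chr2:230712842-230821075 (CAB39). The arrays read the 10 genes through 32 of 54675 probe sets, of which 21 belong to subunits and 11 to upstream genes. Of these, 30 entered the tests, and 1 probe set each of PRKAA1 (1555177_at) and PRKAG2 (215231_at) lay under an intensity of 16 on all 15 arrays and was not tested.

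AMPK is a kinase that senses a fall in cellular energy. It is built of a catalytic alpha subunit, a scaffolding beta subunit that can bind glycogen, and a gamma subunit that binds AMP, ADP and ATP, and each has more than 1 gene, so several complexes can form. It is switched on when an upstream kinase phosphorylates the alpha subunit: LKB1 (STK11), which works in a complex with a STRAD pseudokinase and the scaffold MO25 (CAB39), or the calcium-dependent kinases CaMKK1 and CaMKK2. Once active, it restrains fat and protein synthesis and promotes glucose uptake, fat oxidation and autophagy. Arrays measure RNA only, not the phosphorylation that switches the kinase on.

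The sort labels were checked first. THY1, which encodes CD90, had an intensity of 728.5 to 2171 in CD90+/CD133+ cells, 795.3 to 1221 in CD90+/CD133- cells and 57.8 to 101.3 in CD90-/CD133- cells. PROM1, which encodes CD133, had 429.3 to 1652, then 21.5 to 156, then 9.32 to 44.1 over these fractions in that order. All 9 epithelial and ovarian carcinoma markers, among them EPCAM, KRT8, PAX8 and WT1, lay above 16 on every array. The leukocyte gene PTPRC was at the lowest value of the files (5) on all arrays, and LUM, COL3A1, PDGFRA and CDH5 stayed under 16. Other genes of the fibroblast, endothelial and leukocyte lists lay above 16 on every array, namely COL1A1, DCN, FAP, PDGFRB, PECAM1, VWF, CD3E and CD14, and COL1A2 lay near 16 (11.7 to 19.5). Median intensity was 29.4 to 32.4 per array.

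Of the 30 member probe sets tested, 15 passed the test in CD90+/CD133- against CD90-/CD133- cells (12 higher and 3 lower, limma with the replicate number as a block, adjusted p under 0.05 over all 40004 probe sets). They read 8 of the 10 genes, so probe sets of 1 gene are counted apart. The share was 50%, beside 35.6% of all probe sets (18% higher and 17.6% lower). Because the members were chosen with earlier results of these data known, their shares here are a description only. In CD90+/CD133+ against CD90-/CD133- cells 15 passed as well (10 higher and 5 lower), beside 33.7% of all probe sets (15.2% higher and 18.5% lower). Both comparisons share the CD90-/CD133- arrays. Between the CD90+ fractions, CD90+/CD133+ against CD90+/CD133- cells, 1 was higher and 1 lower, 6.67% of the member probe sets beside 8.86% of all probe sets (3.4% higher and 5.46% lower). Without the block 13, 8 and 0 member probe sets passed in these comparisons, beside 23.2%, 20.8% and 1.26% of all probe sets. Taking the brightest probe set of each gene, 4 of 10 genes were higher and 2 lower in CD90+/CD133- cells (18.7% and 22.3% of all genes), and 4 were higher and 1 lower in CD90+/CD133+ cells (18.1% and 21.4%). All genes include dim ones, while the brightest probe sets of the 10 genes had a mean log2 intensity of at least 6. Among the 9982 genes at or above that level, 26.1% were higher and 28.7% lower in CD90+/CD133- cells. The 5 arrays of each fraction did not overlap for 12 member probe sets in CD90+/CD133- against CD90-/CD133- cells and for 10 in CD90+/CD133+ against CD90-/CD133- cells, where 15.6% and 16.1% of all probe sets did not overlap. In sorted bulk samples, a change in the share of cells that make an RNA and a change in RNA per cell cannot be told apart.

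**Figure D1:**
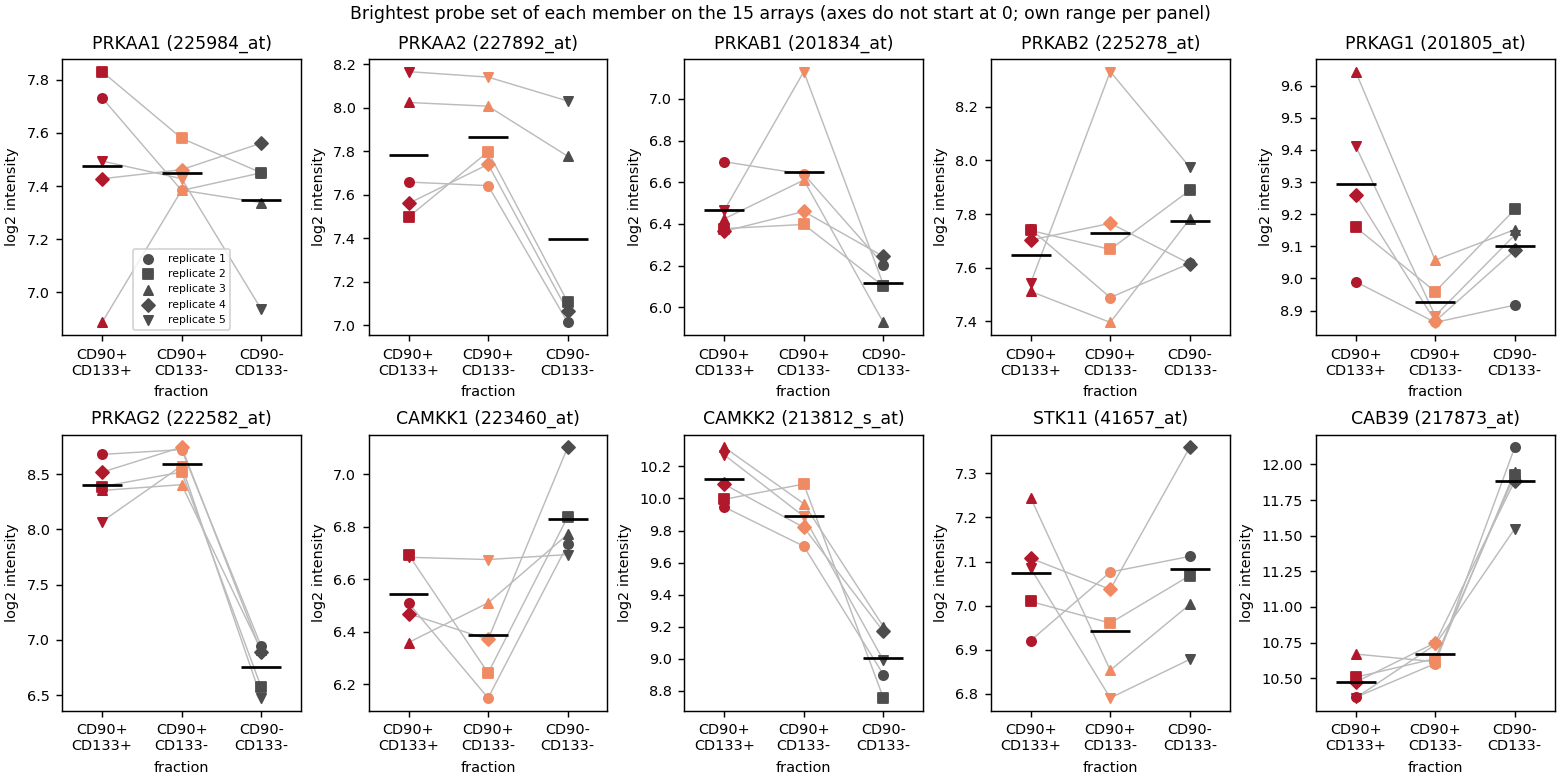
Log2 intensity (vertical axis, own range per panel, not starting at 0) of the brightest probe set of each of the 10 genes on the 15 arrays, by sorted fraction (horizontal axis). Marker shapes and grey lines join arrays of 1 replicate number, and black bars are means. PRKAG2 and CAMKK2 lie higher and CAB39 lower on all 10 CD90+ arrays than on the 5 CD90-/CD133- arrays.

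PRKAG2, which encodes the gamma-2 nucleotide-binding subunit, changed most among the subunits. Its brightest probe set (222582_at) read 409.6, 334.8, 326.8, 366.4 and 268.9 in CD90+/CD133+ cells, 422.1, 366.6, 338.8, 428.5 and 381.4 in CD90+/CD133- cells, and 123, 95.2, 120.1, 118.6 and 89 in CD90-/CD133- cells (replicates 1 to 5). Every CD90+ array stood above every CD90-/CD133- array. The log2 fold change against CD90-/CD133- cells was 1.64 in CD90+/CD133+ cells (standard error 0.08, 3.12-fold, limma adjusted p = 2.87e-07) and 1.83 in CD90+/CD133- cells (standard error 0.08, 3.57-fold, adjusted p = 1.62e-07), higher in 5 of 5 pairs each time. Between the CD90+ fractions it differed by -0.19 (95% interval -0.37 to -0.01, adjusted p = 0.17).

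Other PRKAG2 probe sets did not all move. 233748_x_at was 1.43 higher on the log2 scale in CD90+/CD133+ cells and 1.47 higher in CD90+/CD133- cells, and 218292_s_at was 1.41 and 1.34 higher (adjusted p at most 2.07e-06). 231224_x_at lay between 14.2 and 21.1 on all arrays and did not pass (log2 differences 0.12 and 0.14), and 215231_at, which was not tested, lay between 5.4 and 10.6. A name ending in _x_at marks probes that can also match other sequences. Which PRKAG2 transcript each probe set reads was not worked out here.

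PRKAG1, the gamma-1 subunit gene, was the only member of the 10 whose brightest probe set passed the adjusted test between the CD90+ fractions. 201805_at read 508.3, 571.8, 800, 613.5 and 681.6 in CD90+/CD133+ cells, 465.6, 497.6, 532.6, 466.9 and 472.3 in CD90+/CD133- cells, and 483.4, 594.1, 568.8, 544.1 and 562.3 in CD90-/CD133- cells. CD90+/CD133+ stood above CD90+/CD133- in 5 of 5 pairs, although the 2 groups overlapped (log2 fold change 0.37, standard error 0.08, limma adjusted p = 0.0202). Without the block the adjusted p was 0.0962, and leaving out 1 array (CD90+/CD133+ replicate 3, 4 or 5, or CD90+/CD133- replicate 4 or 5) also ended the call (adjusted p up to 0.0939 over the arrays and replicate numbers left out). Against CD90-/CD133- cells it did not pass in either CD90+ fraction (0.19 in CD90+/CD133+ cells and -0.18 in CD90+/CD133- cells, adjusted p = 0.0821 and 0.107).

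PRKAA2, which encodes the catalytic alpha-2 subunit, was higher in both CD90+ fractions with the replicate number as a block and also varied with that number. 227892_at read 202.1, 180.7, 260.4, 188.7 and 287.4 in CD90+/CD133+ cells, 199.8, 222.6, 257.3, 213.8 and 282.4 in CD90+/CD133- cells, and 129.1, 137.8, 219.4, 133.8 and 261.7 in CD90-/CD133- cells. Replicates 3 and 5 were the highest arrays of each fraction, and replicates 3 and 5 of CD90-/CD133- cells overlapped with the CD90+ arrays. Within pairs the log2 fold change was 0.38 in CD90+/CD133+ cells (standard error 0.09, limma adjusted p = 0.00742) and 0.47 in CD90+/CD133- cells (standard error 0.09, adjusted p = 0.00218), higher in 5 of 5 pairs in both. Without the block the adjusted p was 0.229 and 0.125, and with the label code as the block, under which replicates 4 and 5 share a code, it was 0.14 and 0.0683. Replicate number held 60.3% of the variance of this probe set and fraction 30.6%.

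The dimmer PRKAA2 probe sets split into those that moved with the brightest and those that did not. 238441_at (0.70 in CD90+/CD133+, 0.91 in CD90+/CD133- cells) and 238489_at (0.31 and 0.49) passed in both comparisons, and without the block both lost the call in CD90+/CD133+ cells (limma adjusted p = 0.0889 and 0.0685). 240349_at (0.03 and 0.20) and 207709_at (0.02 and 0.23) passed in neither. In replicate 5 the first pair lay above their fraction means (by 0.65 and 0.23 on the log2 scale) and the second pair below (-0.36 and -0.17).

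PRKAA1, the alpha-1 catalytic subunit gene, had probe sets that moved in opposite directions. The brightest, 225984_at, lay at 118.4 to 227.6 in CD90+/CD133+, 167 to 191.3 in CD90+/CD133- and 122.5 to 188.9 in CD90-/CD133- cells and passed in no comparison (log2 difference from CD90-/CD133- cells 0.13, 95% interval -0.17 to 0.43, for CD90+/CD133+, and 0.10, -0.20 to 0.40, for CD90+/CD133-). 225985_at was higher in CD90+/CD133+ cells (0.38) and CD90+/CD133- cells (0.48), with no overlap of groups. 209799_at was lower in CD90+/CD133+ cells (-0.38, limma adjusted p = 0.0101, 0.0855 without the block). 214917_at lay at or under 23.1 on all arrays and did not pass.

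The beta subunit genes went different ways. PRKAB1, which encodes beta-1, read 103.9, 83.1, 85.9, 82.4 and 88.3 in CD90+/CD133+ cells, 99.6, 84.3, 97.7, 88 and 140.2 in CD90+/CD133- cells, and 73.7, 68.6, 60.8, 75.8 and 69 in CD90-/CD133- cells (201834_at). Neither CD90+ group overlapped with CD90-/CD133- cells. The log2 fold change was 0.35 in CD90+/CD133+ cells (standard error 0.11, limma adjusted p = 0.0312, 0.0551 without the block) and 0.53 in CD90+/CD133- cells (standard error 0.11, adjusted p = 0.00317). In CD90+/CD133+ cells the call ended without any 1 of 7 arrays (CD90+/CD133+ replicate 1, 2, 3 or 4, CD90-/CD133- replicate 1, 3 or 5) and without replicate number 1, 2 or 3, with an adjusted p of up to 0.116 over these settings. The dimmer 201835_s_at was 0.31 higher in CD90+/CD133- cells and did not pass in CD90+/CD133+ cells (0.15).

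PRKAB2, the beta-2 gene, was not higher at any probe set. Its brightest, 225278_at, lay at 182.5 to 214.4 in CD90+/CD133+, 168.4 to 322 in CD90+/CD133- and 196 to 251.5 in CD90-/CD133- cells and passed in no comparison. The dimmer 214474_at (22.2 to 33.7 in CD90+/CD133+, 28 to 53.6 in CD90+/CD133- and 28.3 to 39.8 in CD90-/CD133- cells) was lower in CD90+/CD133+ cells than in both others, by -0.46 on the log2 scale against CD90+/CD133- (limma adjusted p = 0.0101) and -0.37 against CD90-/CD133- cells (adjusted p = 0.00354). Without the block these values were 0.197 and 0.143. 1558027_s_at was lower in CD90+/CD133+ cells, set against CD90-/CD133- cells (-0.32, adjusted p = 0.0391, 0.147 without the block).

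Among the upstream genes, CAMKK2 rose in both CD90+ fractions. Its product couples calcium to AMPK through calmodulin. 213812_s_at read 987, 1020.4, 1278.1, 1088.7 and 1236.4 in CD90+/CD133+ cells, 832.9, 1089.9, 1001.2, 903.6 and 947.7 in CD90+/CD133- cells, and 478.4, 432.3, 588.6, 576.4 and 508.7 in CD90-/CD133- cells. The highest CD90-/CD133- array lay below the lowest CD90+ array. The log2 fold change was 1.12 in CD90+/CD133+ cells (standard error 0.09, 2.17-fold, limma adjusted p = 5.52e-06) and 0.89 in CD90+/CD133- cells (standard error 0.09, 1.85-fold, adjusted p = 2.41e-05). The difference between the CD90+ fractions was 0.23 (95% interval 0.04 to 0.43, adjusted p = 0.129) and passed without CD90+/CD133- replicate 2 (adjusted p = 0.0236). 212252_at was also higher (0.66 in CD90+/CD133+, 0.76 in CD90+/CD133- cells), while 210787_s_at and 207359_at, both at or under 32.4 on all arrays, did not pass.

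CAMKK1, the other calcium-dependent kinase gene, went the other way. 223460_at read 91.1, 103.5, 82.1, 88.6 and 102.8 in CD90+/CD133+ cells, 70.9, 75.8, 91.2, 82.8 and 102.2 in CD90+/CD133- cells, and 106.4, 114.4, 109.3, 137.5 and 103.6 in CD90-/CD133- cells. Neither CD90+ group overlapped with CD90-/CD133- cells, although replicate 5 differed by little. It was lower in the CD90+/CD133- fraction, by a log2 fold change of -0.44 (standard error 0.11, limma adjusted p = 0.00874). In CD90+/CD133+ cells the value was -0.28 (adjusted p = 0.0673), which passed without CD90-/CD133- replicate 5 (adjusted p = 0.0191) and among probe sets with a mean log2 intensity of at least 6 (adjusted p = 0.0352). The dimmer 1552768_at passed in no comparison.

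CAB39 encodes MO25-alpha, the scaffold that holds LKB1 in its active complex, and fell the most of all members. 217873_at read 1319.8, 1455.3, 1629.3, 1420.8 and 1315.8 in CD90+/CD133+ cells, 1555.3, 1593.5, 1569.2, 1721.1 and 1705.3 in CD90+/CD133- cells, and 4452.9, 3898.9, 3956.3, 3782.3 and 2996.5 in CD90-/CD133- cells. All 10 CD90+ arrays lay below all 5 CD90-/CD133- arrays. The log2 fold change was -1.41 in CD90+/CD133+ cells (standard error 0.09, 2.66-fold lower, limma adjusted p = 1.66e-06) and -1.22 in CD90+/CD133- cells (standard error 0.09, 2.33-fold lower, adjusted p = 4.26e-06). 224311_s_at fell alike (-1.49 in CD90+/CD133+ cells and -1.37 in CD90+/CD133- cells). The CD90+ fractions differed by -0.19 at 217873_at (95% interval -0.40 to 0.01, adjusted p = 0.22).

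STK11, which encodes LKB1 itself, did not pass at its brightest probe set. 41657_at lay at 121.2 to 151.7 in CD90+/CD133+, 110.7 to 134.9 in CD90+/CD133- and 117.6 to 164.2 in CD90-/CD133- cells, and the log2 difference from CD90-/CD133- cells was -0.01 in CD90+/CD133+ cells (95% interval -0.19 to 0.17) and -0.14 in CD90+/CD133- cells (-0.32 to 0.04). 231017_at was 0.21 higher in CD90+/CD133- cells (limma adjusted p = 0.0303, 0.237 without the block), and 204292_x_at passed in no comparison.

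**Figure D2:**
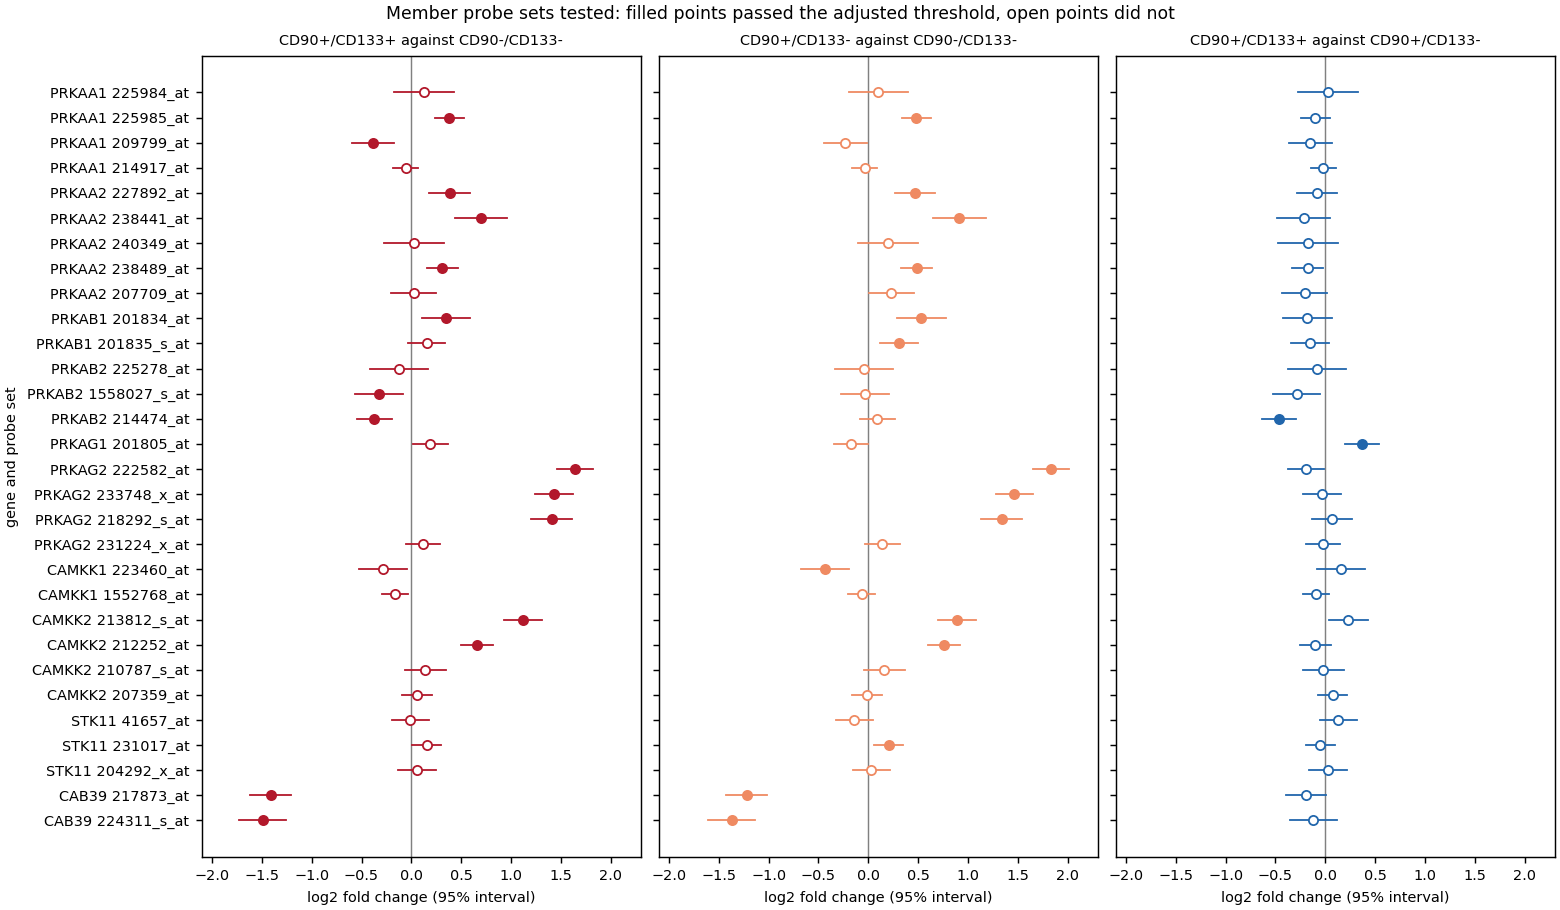
Log2 fold change with its unadjusted 95% interval (horizontal axis) for the 30 member probe sets tested (rows), in 3 comparisons (panels). Filled points passed the adjusted threshold: 15 against CD90-/CD133- cells in CD90+/CD133+ cells, 15 in CD90+/CD133- cells, and 2 between the CD90+ fractions.

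Fraction held 95.6% of the variance of PRKAG2, 95.8% of that of CAB39 and 91.3% of that of CAMKK2 over the 15 arrays (brightest probe sets). For the 18737 probe sets with a mean log2 intensity of at least 6, the median share was 38.9% for fraction and 36.3% for replicate number. PRKAA1 (5.3% for fraction), PRKAB2 (5.7%) and STK11 (20.2%) lay below that median, as did PRKAA2. For PRKAA1, PRKAB2 and STK11 the largest share was held by neither term (52.5%, 57.2% and 48.2%).

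**Figure D3:**
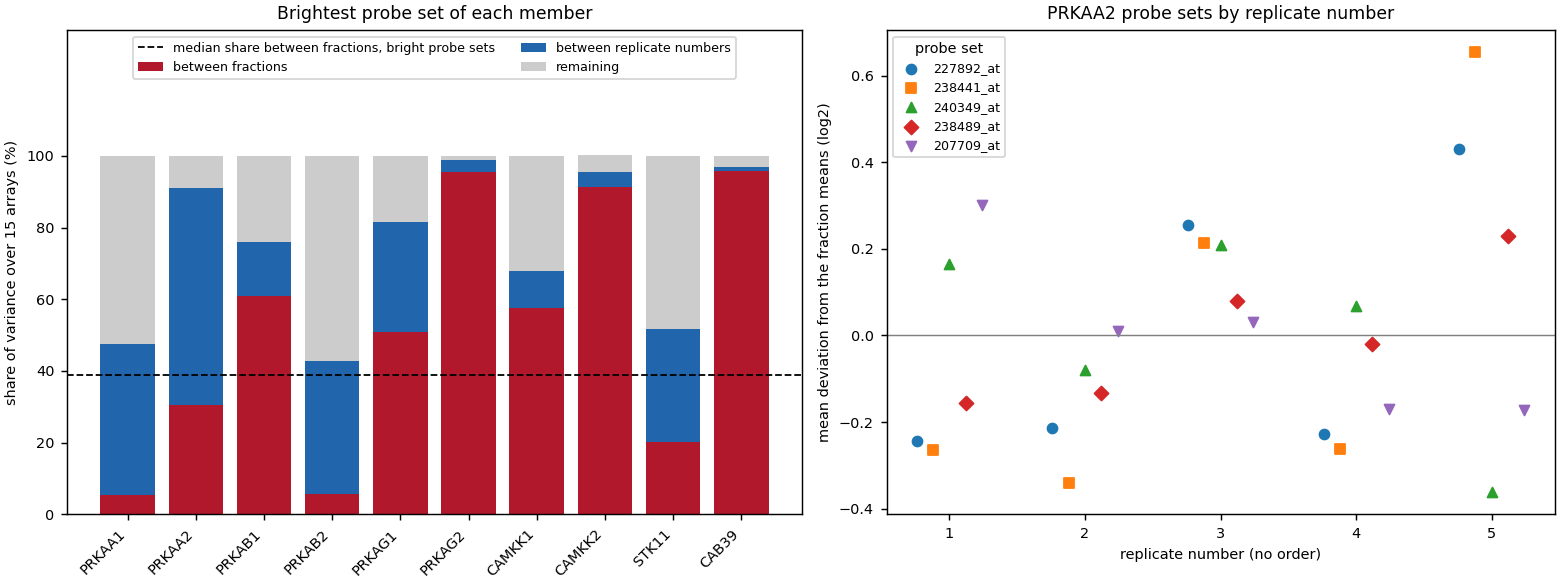
Left, share of variance over 15 arrays (vertical axis, %) between fractions, between replicate numbers and remaining, for the brightest probe set of each gene, with the median share between fractions of 18737 probe sets as a dashed line at 38.9%. Right, mean deviation of each replicate number from the fraction means (log2) for the 5 PRKAA2 probe sets, where 3 of the 5 lie highest in replicate 5 and the other 2 lowest.

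The genes beside a member on its chromosome shifted most, and in its direction, for 4 of the 10 members (PRKAG2, CAMKK2, PRKAB1 and CAMKK1). For each member the 30 nearest expressed genes in RefSeq order were taken, and their median log2 change was set against that of all 9982 expressed genes. Around PRKAG2 (chromosome 7) the neighbours lay 0.58 above it in CD90+/CD133+ cells and 0.55 above it in CD90+/CD133- cells, both against CD90-/CD133- cells (SD over 5 pairs 0.03 and 0.10). PRKAG2 itself lay 1.65 and 1.86 above it, and 3 and 1 of its 30 neighbours changed by more. In CD90+/CD133- cells 26 of the 30 neighbours were called higher and 0 lower, beside 26.1% and 28.7% of all expressed genes.

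CAMKK2 and PRKAB1 lie on the long arm of chromosome 12 and had neighbours that were higher as well. Around CAMKK2 the median was 0.71 in CD90+/CD133+ cells and 0.69 in CD90+/CD133- cells, beside 1.12 and 0.92 for CAMKK2, and 7 and 10 neighbours changed by more. Around PRKAB1 it was 0.64 in both fractions, and PRKAB1, at 0.35 and 0.56, lay below the median of its neighbours. The 2 sets of 30 share 14 genes. PRKAG1, on the same chromosome, had neighbours at -0.06 and -0.07. CAMKK1 (chromosome 17) lay at -0.28 and -0.41, close to its neighbours at -0.28 and -0.38.

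CAB39 (chromosome 2) did not move with its neighbours, which went both ways. It lay at -1.41 in CD90+/CD133+ cells and -1.19 in CD90+/CD133- cells, while the median of its 30 neighbours was 0.11 and 0.20, and only 1 of them fell further in each comparison. In CD90+/CD133+ cells 10 of the 30 were called higher and 7 lower, and in CD90+/CD133- cells 13 and 9. Of all expressed genes, 26.1% were higher and 28.7% lower in CD90+/CD133- cells, so the 9 lower calls lay near that share. For CD90+/CD133+ cells only the share over all genes, dim ones included, was counted (18.1% higher and 21.4% lower). Around the other 5 members (PRKAA1, PRKAA2, PRKAB2, PRKAG1 and STK11) the median of 30 neighbours lay between -0.10 and -0.01 in both comparisons. It depended on the number taken: with the 20 nearest it was -0.22 around PRKAG1 and -0.21 around PRKAB2 in CD90+/CD133- cells. Among these, PRKAA2 lay at 0.39 in CD90+/CD133+ cells, beside neighbours at -0.10, and at 0.50 in CD90+/CD133- cells, beside neighbours at -0.04. The neighbours are a description, and what they share with the member beyond position was not tested.

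**Figure D4:**
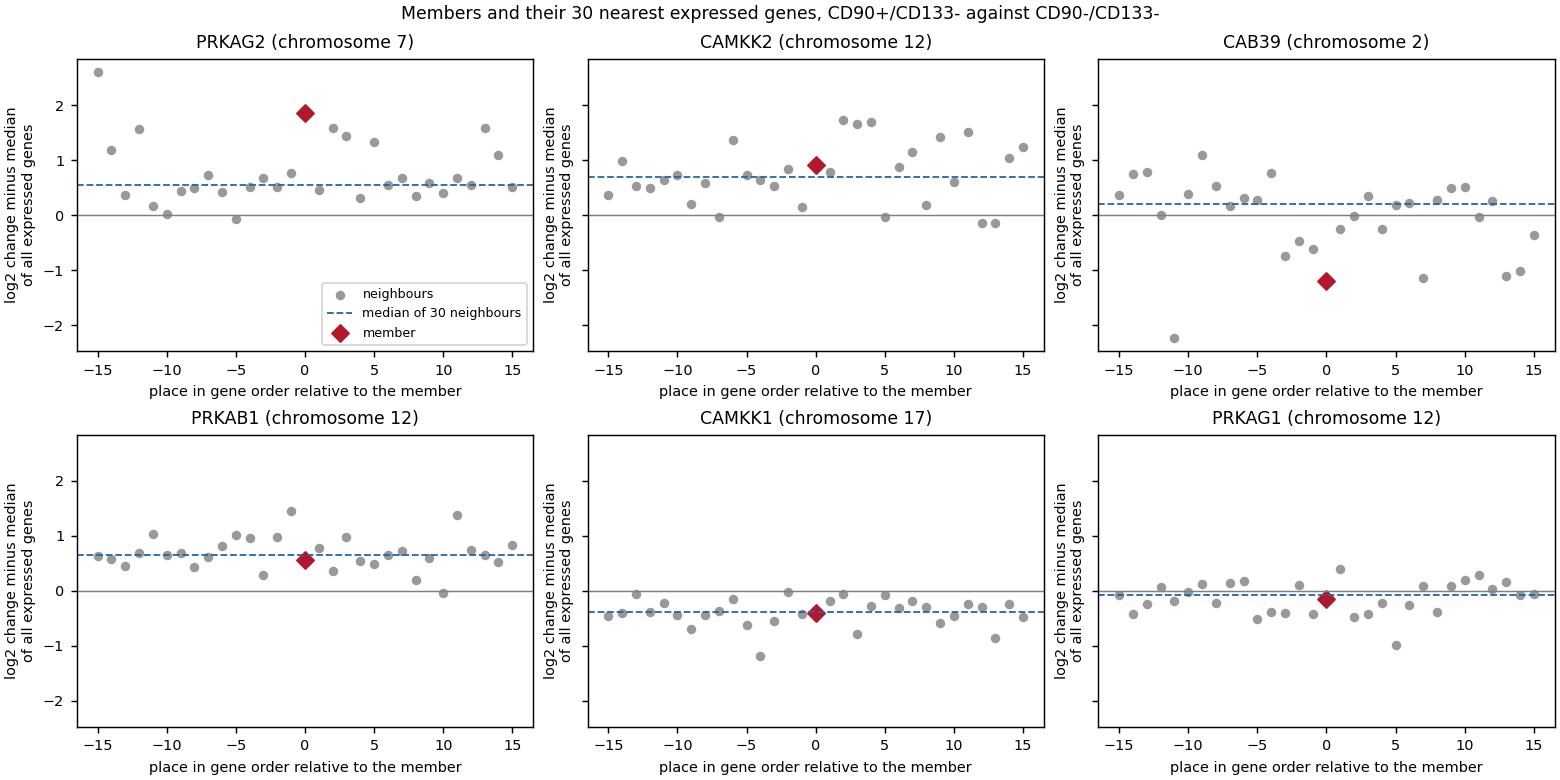
Log2 change in CD90+/CD133- against CD90-/CD133- cells minus the median of all expressed genes (vertical axis) for 6 members (red diamonds at place 0) and their 30 nearest expressed genes (grey), by place in gene order (horizontal axis). The dashed line, the median of the neighbours, lies at 0.55 around PRKAG2, 0.69 around CAMKK2, 0.64 around PRKAB1 and -0.38 around CAMKK1, while CAB39 lies at -1.19 beside neighbours at 0.20.

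The sequences before the annotated starts were read because HIF-1α, which the study is about, binds a short core motif, here ACGTG or GCGTG on either strand (CACGTG would count 2 times). In 250 bases before a start, 43.2% of 35116 RefSeq promoters held at least 1 match. PRKAG2, with 5 annotated starts, had a match before 1 of them only, and CAMKK2 had none, while CAB39 had 1 match before one start and 2 before the other. The first PRKAG2 start, of the member with the largest rise, and the STK11 start, whose window held the most matches, are shown 5′ to 3′ with matches in capitals (RefSeq, GRCh38.p14). The PRKAG2 window is chr7:151877116-151877365 on the minus strand, where RefSeq also places the antisense gene PRKAG2-AS1, and the STK11 window is chr19:1205528-1205777 on the plus strand.
PRKAG2, start 1: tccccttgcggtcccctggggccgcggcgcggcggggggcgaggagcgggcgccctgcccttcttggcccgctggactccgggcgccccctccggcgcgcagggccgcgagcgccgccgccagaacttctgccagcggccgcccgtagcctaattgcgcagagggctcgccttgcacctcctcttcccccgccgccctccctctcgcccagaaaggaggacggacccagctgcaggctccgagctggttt
STK11: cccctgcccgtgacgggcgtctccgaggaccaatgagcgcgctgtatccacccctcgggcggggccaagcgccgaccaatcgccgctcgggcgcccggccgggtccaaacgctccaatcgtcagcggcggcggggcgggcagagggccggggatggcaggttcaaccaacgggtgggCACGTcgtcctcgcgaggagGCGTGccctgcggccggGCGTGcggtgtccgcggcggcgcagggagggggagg
The PRKAG2 window held 0 matches and 75.6% G or C, and the STK11 window held 3 matches and 76% G or C. A match is a description of these letters, and says nothing of binding.

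By likeness over the 15 arrays (Pearson r of brightest probe sets over all other genes), PRKAG2 was followed most closely by TMED2 (0.993), NR3C1 (0.991) and CHFR (0.986), CAMKK2 by THY1 (0.972), CCK (0.971) and ARL6IP4 (0.969), and CAB39 by NETO2 (0.986), CDH11 (0.984) and TMEM108 (0.983). These values carry the step between CD90+ and CD90-/CD133- cells and are a description. PRKAA2 was closest to MARCHF6 (0.943), PRKAB1 to DCTN4 (0.966), PRKAG1 to COX14 (0.923) and CAMKK1 to FGFR4 (0.889).

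Other genes of the pathway were taken from 5 lists with 52 genes, of which 42 were tested, each at its brightest probe set. Other probe sets of a gene did not always follow it. In CD90+/CD133+ against CD90-/CD133- cells 10 were higher, 10 lower and 22 did not pass, and in CD90+/CD133- against CD90-/CD133- cells 12 were higher, 8 lower and 22 did not pass. Over all genes 18.1% were higher and 21.4% lower in CD90+/CD133+ cells, and 18.7% and 22.3% in CD90+/CD133- cells. The median log2 difference was -0.0293 and -0.00158, beside -0.0009 and -0.0182 for all genes. Without the block 13 and 15 passed.

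The list of LKB1 and CaMKK partners also held MAP3K7, another kinase, and PRKAG3, a gamma subunit gene. Of its 5 genes tested, 1 was lower in CD90+/CD133+ cells, and 1 was higher and 2 lower in CD90+/CD133- cells. Over all genes 18.1% were higher and 21.4% lower in CD90+/CD133+ cells, and 18.7% and 22.3% in CD90+/CD133- cells. MAP3K7, the TAK1 kinase that can also phosphorylate AMPK, was lower in CD90+/CD133+ cells (-0.63) and CD90+/CD133- cells (-0.40, limma adjusted p = 0.000805). CAB39L, the paralogue of CAB39, differed by -0.19 in CD90+/CD133+ cells without passing and was lower in CD90+/CD133- cells (-0.27). STRADB, a pseudokinase partner of LKB1, differed by -0.01 in CD90+/CD133+ cells without passing and was higher in CD90+/CD133- cells (0.24). PRKAG3, the remaining gamma gene, had means near 18 in all fractions and did not pass.

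Of the other kinases that a CaMKK phosphorylates, CAMK1D was higher (1.09 in CD90+/CD133+, 1.14 in CD90+/CD133- cells, 2.21-fold) and CAMK4 lower (-1.07 and -1.05). Of the 11 AMPK-related kinases tested that LKB1 phosphorylates, 3 were higher and 3 lower in CD90+/CD133+ cells, and 3 higher and 2 lower in CD90+/CD133- cells. The shares over all genes were 18.1% and 21.4% in CD90+/CD133+ cells, and 18.7% and 22.3% in CD90+/CD133- cells. SIK1 was higher (1.09 and 1.42, 2.67-fold in CD90+/CD133- cells, adjusted p = 0.00392 and 0.000733), and its adjusted p in CD90+/CD133+ cells was 0.132 without the block. Its other probe set did not follow (0.23 and -0.16). SIK3 (0.49 and 0.59) and MARK3 (0.26 and 0.31) were also higher, and NUAK1 was lower (-1.13 and -1.05). Also lower were SNRK (-0.48 and -0.23) and, in CD90+/CD133+ cells only, SIK2 (-0.35), both named after their values were seen. Without the block the limma adjusted p of SNRK in CD90+/CD133- cells was 0.11.

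Of 16 AMPK substrate genes tested, 5 were higher and 5 lower in CD90+/CD133+ cells, and 5 higher and 3 lower in CD90+/CD133- cells, to be read beside the shares over all genes given above (18.1% and 21.4%, 18.7% and 22.3%). PFKFB3, which drives glycolysis by making fructose-2,6-bisphosphate, was higher in both (0.65 and 1.05, adjusted p = 0.000273 and 1.08e-05). The Rab-GTPase-activating genes TBC1D4 (0.30 and 0.44) and TBC1D1 (0.55 and 0.41), which govern glucose transporter traffic, were higher as well. Lower in both at the brightest probe set were EEF2K (-0.43 and -0.33), the kinase that slows translation elongation, and ACACA (-0.23 and -0.31), which makes malonyl-CoA for fatty acid synthesis, both named after their values were seen. The other ACACA probe set went the opposite way (0.65 and 0.29). Without the block the limma adjusted p of ACACA in CD90+/CD133+ cells was 0.0507. ULK1, the kinase that starts autophagy, was higher in CD90+/CD133- cells (0.65), did not pass in CD90+/CD133+ cells (0.15), and between the CD90+ fractions was lower in CD90+/CD133+ cells (-0.50, limma adjusted p = 0.0236, 0.254 without the block). In that comparison of the CD90+ fractions 6 of the 42 pathway genes were lower and 0 higher with the block, beside 4.37% and 4.67% of all genes, and 0 passed without it. These 6 were SNRK, TSC2, ULK1, PFKFB2, PFKFB3 and FOXO3, 4 of which are named after their values were seen. Among the 7 regulators tested, SESN1 was higher in both CD90+ fractions (0.29 and 0.27, adjusted p without the block 0.178 and 0.217) and the phosphatase gene PPM1A in CD90+/CD133- cells (0.29, against 0.19 in CD90+/CD133+ cells without passing).

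**Figure D5:**
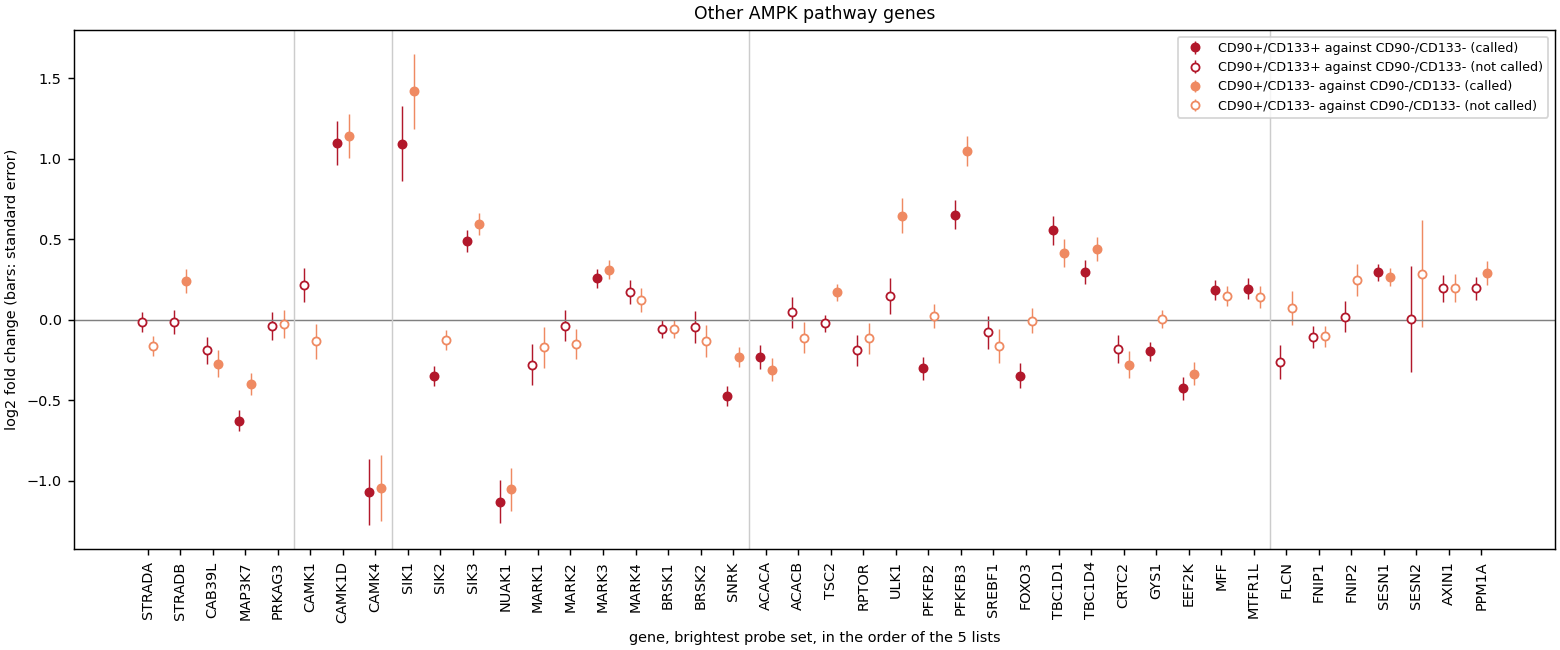
Log2 fold change with its standard error (vertical axis) of the 42 other pathway genes tested (horizontal axis, grouped by list), in CD90+/CD133+ (red) and CD90+/CD133- (orange) against CD90-/CD133- cells. Filled points passed the adjusted threshold, 20 in each comparison, with CAMK1D and SIK1 highest and CAMK4 and NUAK1 lowest.

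RNA quality and other cell types were read beside these results. For ACTB, the log2 signal of the 3' control probe set minus that of the 5' one was 1.70 ± 0.66 in CD90+/CD133+, 2.46 ± 0.56 in CD90+/CD133- cells and 1.84 ± 0.32 in CD90-/CD133- cells (log2, SD, n = 5 each), and that of GAPDH was 0.05 ± 0.04, 0.19 ± 0.08 and 0.06 ± 0.03 in the same order. Within pairs the GAPDH difference was higher in CD90+/CD133- cells in 5 of 5 pairs against CD90-/CD133- cells, and lower in CD90+/CD133+ cells in 5 of 5 pairs against CD90+/CD133- cells, each with p = 0.0625, the smallest that an exact paired permutation test of 5 pairs allows (2-sided). For ACTB the direction was the same in 4 of 5 pairs (exact paired permutation p = 0.125 both times). Unpaired, the exact permutation p for GAPDH was 0.0159 and 0.0238 (0.0714 each when adjusted over 6 comparisons). Of 5 fibroblast markers tested, FAP was lower in CD90+/CD133+ cells (-1.98) and CD90+/CD133- cells (-2.02), while COL1A1 was higher in CD90+/CD133+ (0.26) and DCN in CD90+/CD133- cells (0.33). The epithelial markers summed to 29980 to 36740 in CD90+/CD133+ cells, 33580 to 40650 in CD90+/CD133- cells and 45080 to 52460 in CD90-/CD133- cells, with no overlap of either CD90+ fraction with the last. The leukocyte markers summed to 115.4 to 205.5 in CD90+/CD133+ cells, 132.1 to 190.3 in CD90+/CD133- cells and 83.9 to 108.3 in CD90-/CD133- cells, again with no overlap, and the endothelial ones to 87.3 to 110 in CD90+/CD133+ cells, 78.1 to 96.6 in CD90+/CD133- cells and 77.9 to 92.2 in CD90-/CD133- cells. The fibroblast markers summed to 248.3 to 306.5 in CD90+/CD133+, 227.3 to 262.8 in CD90+/CD133- and 321.2 to 385.7 in CD90-/CD133- cells. Of the 9 epithelial markers, 2 were higher and 4 lower in CD90+/CD133+ cells, and 3 higher and 3 lower in CD90+/CD133- cells, and of 2 endothelial genes tested 0 passed. CD14 was higher in both CD90+ fractions (1.00 and 0.96), while PTPRC was at 5 on all arrays. The part of these values in the members' differences was not tested.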

How the data were processed

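Labelled RNA from 15 samples had been hybridized to Affymetrix U133 Plus 2.0 arrays and normalized by the authors through cross-correlation. Each deposited value is a linear intensity of 1 probe set, never under 5. How probes were summarised is not given in the sources used here. Design text from the submitters speaks of triplicates, and the replicate numbers 1 to 5 of the samples were used.

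Before log2 was taken, lower intensities were raised to a floor of 16, so changes of dim probe sets are understated. Left out were 62 control probe sets and 14609 at the floor on all arrays. Of 54675 probe sets, 41091 name 1 gene and were used for genes, 1801 name several and 11721 are unnamed here. Group differences were tested with lmFit and eBayes of limma 3.58.1 under R 4.3.3 (2-sided, threshold 0.05 after Benjamini-Hochberg adjustment over 40004 probe sets), with 3 fractions in one fit and the replicate number as a block. The fit was tested on simulated data, where only probe sets with a mean log2 intensity of at least 6 were changed. That setting does not cover dim probe sets, or changes as small as most of those of the members. The number of arrays limits the precision, and where separate cultures are not named (CD90+/CD133+ cells), p-values measure only the spread between samples.

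Same-numbered arrays mostly deviated together from their group means (correlations 0.19 to 0.84, mean between different numbers -0.12 to -0.11). Samples of 1 number also share a label code, so the numbers were taken to pair the arrays. Between different numbers single correlations reached 0.36. Replicate 3 of CD90+/CD133+ cells correlated no better with replicate 3 of CD90-/CD133- cells (0.19) than with replicate 5 (0.23). Replicates 4 and 5 share 1 code. The methods name a 1.5-fold threshold on group averages and no test for the arrays.

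The members and lists were chosen with earlier results of these data known. All 10 members and each of their probe sets are named, the brightest (highest mean) first. Of each list, up to 4 called genes with the largest change in CD90+/CD133- against CD90-/CD133- cells are named, and for each member the 3 most alike genes were found. Expressed genes are those with a mean log2 intensity of at least 6. Gene order, windows and sequences come from RefSeq (GRCh38.p14), where all 10 members matched by gene number. The paired test of the control probe sets was added after the data were seen. Exact permutation tests used SciPy 1.17.1.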

Additional observations from a re-analysis of the deposited data

Results flagged for a closer look

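The brightest probe set of each of the 10 genes was checked in each fraction of 5 arrays for 1 array far from the others (gap to the nearest array over 0.71 of the range, Dixon's 95% critical value). Of 30 such groups, 0 passed that value.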

How the results depend on the processing

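Of 990 values of single genes under alternatives, 945 kept their call and direction, 35 lost the call, 10 gained it and 0 reversed. PRKAG2, CAMKK2 and CAB39 kept their calls against CD90-/CD133- cells in both CD90+ fractions under all 33 alternatives run. Members are counted here by probe set. Counts are given for CD90+/CD133+ against CD90-/CD133-, CD90+/CD133- against CD90-/CD133- and CD90+/CD133+ against CD90+/CD133- cells. With no replicate block, the paired fit's counts of 13471, 14242 and 3546 probe sets were 8306, 9276 and 503, the members called were 8, 13 and 0 beside 15, 15 and 2, and the other pathway genes were 13, 15 and 0 beside 20, 20 and 6. Fitting only the 10 arrays compared gave 0 members and 1 pathway gene between the CD90+ fractions. The count of member probe sets between the CD90+ fractions was 1 with a floor of 64 or a mean log2 of at least 6, where fewer probe sets were tested. A plain t-test, which the study names for other data and not for its arrays, gave 8, 11 and 0 members after adjustment, and 13, 15 and 4 before it. The methods' 1.5-fold threshold gave 8, 8 and 0. Leaving out 1 array or replicate number gave 12 to 17, 13 to 17 and 0 to 3 members. PRKAG1 in CD90+/CD133+ against CD90-/CD133- cells passed without CD90+/CD133+ replicate 1 or 2 (adjusted p down to 0.0416). With the 20 or 50 nearest neighbours in place of 30, the median around PRKAG2 in CD90+/CD133- cells was 0.51 and 0.61, around CAMKK2 0.73 and 0.85, around PRKAB1 0.64 and 0.66, around CAMKK1 -0.39 and -0.33 and around CAB39 0.25 and 0.09. Around PRKAG1 it was -0.22 and -0.03, and around PRKAB2 -0.21 and -0.10. Around PRKAA1, PRKAA2 and STK11 it lay between -0.11 and 0.04. Causes of these shifts were not tested. A floor of 16 leaves dim probe sets, such as 231224_x_at of PRKAG2, little room to fall.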
